A study of Mus musculus with 6 samples.

Results

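The 36 genes described here encode the enzymes that make cholesterol and fatty acids and the proteins that control them. They were taken by name as a list of pathway members, with earlier results of these data known. All 36 were measured among the 20263 genes on the array. Expression was profiled in regenerating prostates of 10-week-old mice, 3 wild type and 3 Gli1-/-, with 1 mouse per array. All 6 mice had been castrated at 8 weeks of age and had received a subcutaneous testosterone pellet 2 weeks later, so both groups share regression and hormone-driven regrowth. The ventral and dorsolateral lobes were pooled per mouse after 3 days of testosterone, and the RNA of the whole tissue was measured. Gli1 encodes a transcription factor of the Hedgehog pathway. The labels call the mutant a loss-of-function mutant. The sources used here give neither the exact allele nor the strain.

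Cholesterol is built from acetyl-CoA by way of mevalonate, farnesyl diphosphate, squalene and lanosterol, and fatty acids are built from the same precursor through malonyl-CoA. Most of these enzymes are targets of the sterol regulatory element-binding proteins encoded by Srebf1 and Srebf2, membrane-bound factors that the escort protein Scap carries to the Golgi for release when sterols are low and that the Insig proteins retain in the endoplasmic reticulum when sterols are high. The product of Srebf2 acts mainly on the sterol branch and that of Srebf1 mainly on the fatty acid branch. In the prostate both branches are known to respond to androgen, and the secretory epithelium is rich in lipid synthesis.

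None of the 36 genes passed the test over all genes (limma, Benjamini-Hochberg adjusted p under 0.05), where 4 of 20263 genes (0.0197%) did. The lowest adjusted p among them was 0.221, that of Mvd. At an unadjusted p under 0.05, 8 members were lower in the mutants, against 4.58% of all genes, and 2 were higher, against 5.93%. In 11 members every mutant value lay below every wild-type value, against 6.01% of all genes, and in 2 every mutant value lay above, against 8.34%. Without wild-type mouse 1, groups were apart in 20 members rather than 13, and then in 36% of all genes. These counts and medians describe the list and are no test of it. The differences were small. They ran from -0.55 for Insig1 to 0.29 for Acss2 on the log2 scale, and the median was -0.06 against 0.00 over all genes.

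The sterol and the fatty acid branch had differences of mostly opposite sign. Of the 17 sterol synthesis enzymes 14 were lower in the mutants (median log2 difference -0.16), where 51.5% of all genes were. Of the 13 fatty acid enzymes 10 were higher (median 0.10). Leaving out single mice turned the direction of Idi1, Ebp, Sc5d and Dhcr7 in the sterol branch. In the fatty acid branch it turned that of Acly, Fasn, Scd2, Elovl5 and Fads1. Genes of the sterol branch whose groups did not overlap numbered 8 (47.1%), all lower. The fatty acid branch had 1 lower and 2 higher genes of that kind (23.1%). Over all genes the groups did not overlap in 14.3%. Whether the branches differ from each other was not tested.

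**Figure D1:**
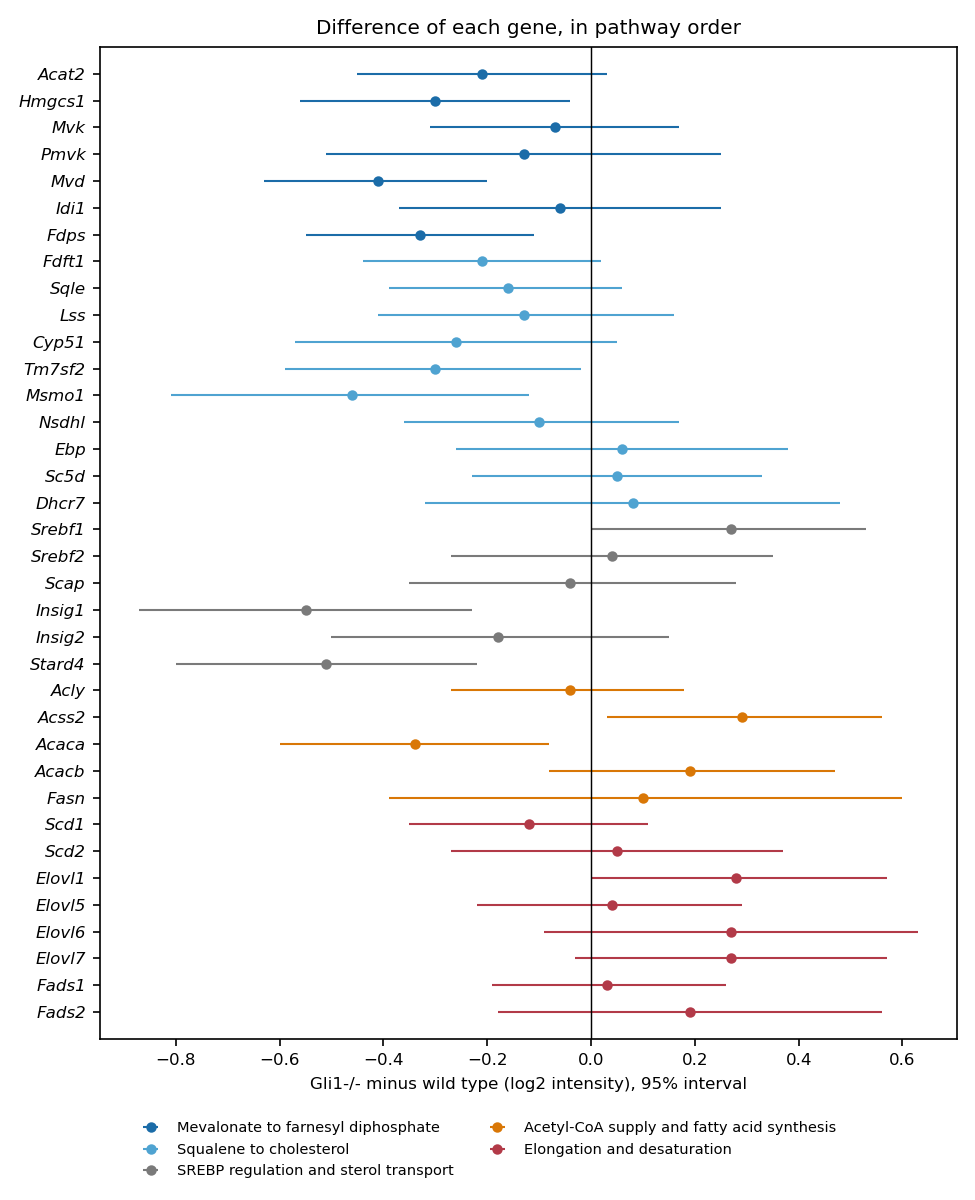
Difference between Gli1-/- and wild-type prostates (x axis, log2 intensity) of the 36 genes in pathway order (y axis), with 95% intervals from limma (n = 3 mice per group). Points run left of 0 from Acat2 to Nsdhl and lie mostly right of 0 from Srebf1 on, except for Insig1, Stard4, Acaca and a few smaller differences.

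**Figure D2:**
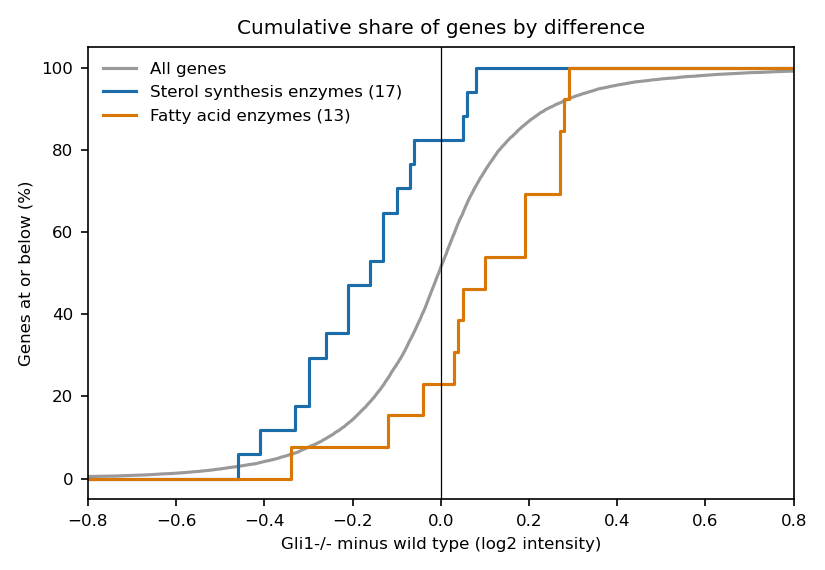
Cumulative share of genes (y axis, percent) at or below each difference between Gli1-/- and wild type (x axis, log2 intensity) for all genes, the 17 sterol synthesis enzymes and the 13 fatty acid enzymes. The sterol curve lies left of the curve of all genes over most of its range and crosses 0 with 14 of 17 genes below it, and the fatty acid curve lies to the right over most of its range.

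To show the DNA next to which these genes start, 5 promoters are printed, 4 of the 11 genes lower in all mutants and that of Acss2, which was higher in all of them. They were picked by name, not by a rule, and do not stand for the other genes lower in all mutants. Stard4 (-0.51), Acaca (-0.34) and Fdps (-0.33) are among those not printed. RefSeq promoter windows of build GRCm38.p6, from 250 bases before to 50 bases after a start, were at hand for 29 of the 36 genes, in 38 windows. Each stretch below is the 250 bases before the start, on the gene's strand from 5′ to 3′. Capitals mark exact matches on either strand to the sterol regulatory element TCACNCCAC, the NF-Y box CCAAT and the E-box CACGTG. The stretches are chr5:28071162-28071411 on the + strand for Insig1, chr8:64733579-64733828 on the - strand for Msmo1 and chr8:122443423-122443672 on the - strand for Mvd. For Hmgcs1 the stretch is chr13:119690101-119690350 on the + strand, and for Acss2 it is chr2:155517793-155518042 on the + strand.
Insig1: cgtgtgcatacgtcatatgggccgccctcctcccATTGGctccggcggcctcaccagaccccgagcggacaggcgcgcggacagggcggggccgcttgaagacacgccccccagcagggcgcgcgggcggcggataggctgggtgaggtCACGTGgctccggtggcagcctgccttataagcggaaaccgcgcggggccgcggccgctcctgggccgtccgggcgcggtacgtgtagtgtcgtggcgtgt
Msmo1: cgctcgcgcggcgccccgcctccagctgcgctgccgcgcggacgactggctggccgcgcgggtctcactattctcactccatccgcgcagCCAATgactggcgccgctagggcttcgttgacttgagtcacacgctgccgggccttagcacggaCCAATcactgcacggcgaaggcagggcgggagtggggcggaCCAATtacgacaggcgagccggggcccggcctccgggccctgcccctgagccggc
Mvd: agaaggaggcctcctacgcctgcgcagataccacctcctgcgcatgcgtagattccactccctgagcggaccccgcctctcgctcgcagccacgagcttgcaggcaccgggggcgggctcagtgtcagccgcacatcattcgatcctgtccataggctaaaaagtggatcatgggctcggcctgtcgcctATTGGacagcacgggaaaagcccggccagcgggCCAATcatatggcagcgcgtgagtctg
Hmgcs1: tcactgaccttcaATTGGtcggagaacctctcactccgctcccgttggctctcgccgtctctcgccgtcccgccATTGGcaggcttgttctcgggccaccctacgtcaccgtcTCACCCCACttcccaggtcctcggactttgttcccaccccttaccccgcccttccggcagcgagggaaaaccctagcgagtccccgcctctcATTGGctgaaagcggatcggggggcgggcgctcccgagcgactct
Acss2: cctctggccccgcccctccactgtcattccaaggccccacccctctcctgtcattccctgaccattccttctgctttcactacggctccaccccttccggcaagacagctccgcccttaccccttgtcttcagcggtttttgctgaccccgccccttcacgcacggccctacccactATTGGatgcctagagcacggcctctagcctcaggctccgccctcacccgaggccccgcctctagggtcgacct

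The Hmgcs1 stretch holds the sterol regulatory element, its first base at position -137 from the start, with NF-Y boxes on either side of it. That element occurred in 1 of the 38 member windows (2.63%) and in 1.24% of the 32851 windows of all genes. The NF-Y box, bound by a factor known to work together with the sterol regulatory element-binding proteins, occurred in 24 member windows (63.2%) and in 37.4% of all windows. Msmo1 had 3 of these boxes in the printed stretch and Mvd had 2. An E-box stood in the Insig1 stretch, and 6 member windows (15.8%) held one, against 7.15% of all windows. The short androgen receptor motif AGAACA occurred in 7 member windows (18.4%) and 19.0% of all windows. Some genes have several windows that overlap. The matches are letters in a window, and binding was not measured.

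The 7 genes from acetyl-CoA to farnesyl diphosphate were all lower in the mutants, with a median log2 difference of -0.21. Mvd, mevalonate diphosphate decarboxylase, which makes isopentenyl diphosphate, read 8.79, 8.91 and 8.83 on the log2 scale in the wild-type animals (mice 1, 2 and 3) against 8.39, 8.52 and 8.39 in the mutants in the same order. All mutants lay below all wild-type mice, by more than the spread within either group, and Mvd had the smallest spread between mice of all 36 genes (pooled SD 0.066). The difference was -0.41 (SE 0.09, 95% interval -0.63 to -0.20), a 1.33-fold lower intensity, with a limma adjusted p of 0.221. Fdps, which encodes farnesyl diphosphate synthase at the branch point to sterols and prenyl groups, read 7.91, 8.07 and 7.97 in wild type against 7.58, 7.68 and 7.70 in the mutants. Its groups did not overlap either, and it differed by -0.33 (SE 0.10, limma adjusted p = 0.296).

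Hmgcs1 encodes the cytosolic synthase that condenses acetyl-CoA with acetoacetyl-CoA. It read 8.96, 8.98 and 9.05 in wild type against 8.64, 8.89 and 8.56 in the mutants. Mutant 2 came close to the lowest wild-type mouse while the other mutants lay well below, and the difference was -0.30 (SE 0.11, limma adjusted p = 0.426). Acat2, the thiolase that supplies acetoacetyl-CoA, read 8.86, 8.85 and 8.99 in wild type against 8.57, 8.82 and 8.68 in the mutants. Here too mutant 2 was the nearest to wild type, and the groups were just apart (-0.21, SE 0.10, limma adjusted p = 0.544). The kinase genes Mvk (-0.07, SE 0.10) and Pmvk (-0.13, SE 0.16) and the isomerase gene Idi1 (-0.06, SE 0.14) overlapped between the groups. For Idi1 the lowest of all 6 values, 6.93, belonged to wild-type mouse 1.

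From squalene to lanosterol and on to the removal of its methyl groups, differences were again negative. Fdft1, squalene synthase, read 10.20, 10.24 and 10.13 in wild type against 9.99, 9.85 and 10.09 in the mutants. Sqle, the epoxidase that is a rate-limiting step after mevalonate, read 8.81, 8.70 and 8.60 against 8.47, 8.56 and 8.58. Groups did not overlap in either gene, but for Sqle wild-type mouse 3 stood only just above the highest mutant. Fdft1 differed by -0.21 (SE 0.10, limma adjusted p = 0.522) and Sqle by -0.16 (SE 0.10, limma adjusted p = 0.606). The lanosterol synthase gene Lss differed by -0.13 (SE 0.12) and the demethylase gene Cyp51 by -0.26 (SE 0.13), both with overlapping groups. Cyp51 read 8.91 in wild-type mouse 3, below mutant 3 at 9.04.

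Msmo1, the sterol methyl oxidase, had the most negative difference of the synthesis enzymes. It read 9.55, 9.91 and 9.89 in wild type against 9.08, 9.50 and 9.37 in the mutants. Wild-type mouse 1 stood just above mutant 2, and the other values were further apart. The difference was -0.46 (SE 0.15, 95% interval -0.81 to -0.12, limma adjusted p = 0.349), a 1.38-fold lower intensity. Tm7sf2, a sterol reductase acting right after Cyp51, read 9.25, 9.46 and 9.38 against 8.87, 9.23 and 9.07. Its groups were only just apart, since wild-type mouse 1 and mutant 2 nearly coincided (-0.30, SE 0.12, limma adjusted p = 0.448).

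The last enzymes of the pathway gave differences near 0. Nsdhl, which takes part in removing the methyl groups, differed by -0.10 (95% interval -0.36 to 0.17). The isomerase gene Ebp differed by 0.06 (-0.26 to 0.38), the desaturase gene Sc5d by 0.05 (-0.23 to 0.33) and the reductase gene Dhcr7, which makes cholesterol itself, by 0.08 (-0.32 to 0.48). The groups overlapped in all 4 genes. In Ebp, Sc5d and Dhcr7 the lowest of all 6 mice was wild-type mouse 3, and their direction turned when that mouse was left out.

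**Figure D3:**
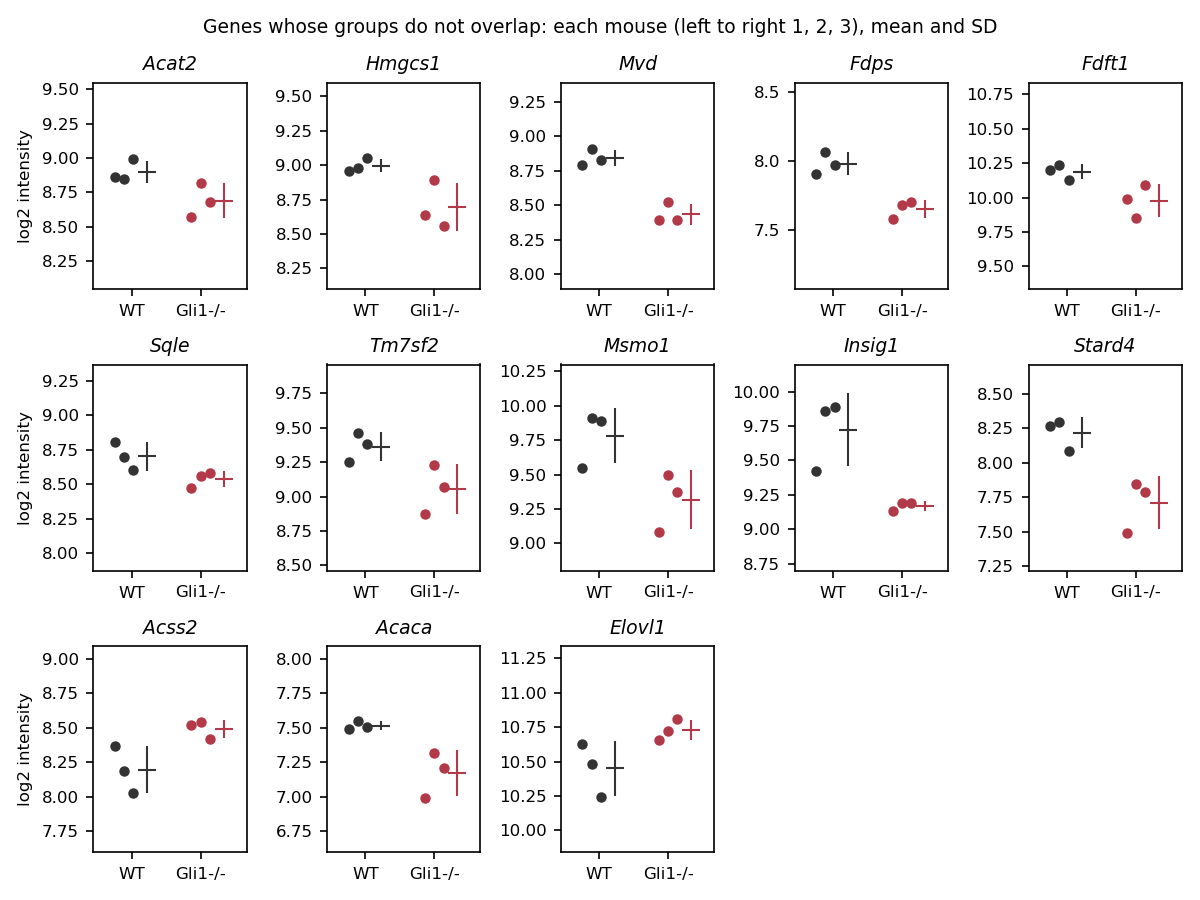
Log2 intensity (y axis, each panel spanning the same 1.5 units) of the 13 genes whose groups do not overlap, for wild-type (black) and Gli1-/- (red) mice, with points for mice 1, 2 and 3 from left to right and the group mean with its SD. In 11 panels the red points lie below the black ones and in Acss2 and Elovl1 above, while the gap is narrow in Sqle, Tm7sf2, Acat2, Elovl1, Fdft1, Msmo1 and Acss2.

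Among the regulators, the 2 most negative differences of all 36 genes were found in Insig1 and Stard4. Insig1, itself a target of the sterol regulatory element-binding proteins, encodes the protein that retains them. It read 9.42, 9.86 and 9.89 in wild type against 9.13, 9.19 and 9.19 in the mutants. The mutants were close together, and wild-type mouse 1 stood between them and the other wild-type mice. Insig1 differed by -0.55 (SE 0.14, 95% interval -0.87 to -0.23, limma adjusted p = 0.239), a 1.47-fold lower intensity. With each mouse left out in turn the difference was -0.70 to -0.47 and the adjusted p 0.088 to 0.566. Stard4, which encodes a soluble carrier of cholesterol between membranes, read 8.27, 8.30 and 8.09 against 7.49, 7.85 and 7.79. Its groups were well apart, by -0.51 (SE 0.13, 95% interval -0.80 to -0.22, limma adjusted p = 0.234), a 1.43-fold lower intensity.

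The genes for the factors themselves gave other values than these targets. Srebf2 read 9.75, 9.47 and 9.41 in wild type against 9.76, 9.42 and 9.57 in the mutants, so that the groups covered nearly the same range (0.04, 95% interval -0.27 to 0.35). Srebf1 read 9.61, 9.30 and 9.40 in wild type against 9.77, 9.73 and 9.60 in the mutants. Mutant 3 and wild-type mouse 1 nearly coincided, and the other mutants were higher (0.27, SE 0.11, limma adjusted p = 0.469). The escort gene Scap differed by -0.04 (SE 0.13), and Insig2, the second retention gene, by -0.18 (SE 0.14), both with overlapping groups. Cleavage and nuclear entry, which set the activity of these factors, are not seen by an RNA array.

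In the branch that makes palmitate, members differed in sign, and their median of 0.10 turned to -0.05 without mutant 1. Acaca, the cytosolic acetyl-CoA carboxylase that commits carbon to fatty acids, read 7.49, 7.55 and 7.51 in wild type against 6.99, 7.32 and 7.21 in the mutants. The wild-type mice were nearly equal and all mutants lay below them, by -0.34 (SE 0.11, limma adjusted p = 0.352). Acss2, which makes acetyl-CoA from acetate, ran the other way, with 8.37, 8.19 and 8.03 in wild type against 8.52, 8.54 and 8.42 in the mutants. It had the most positive difference of the 36 genes, 0.29 (SE 0.11, limma adjusted p = 0.431), although wild-type mouse 1 lay just below mutant 3.

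Fasn, the fatty acid synthase, read 10.43, 10.03 and 9.99 in wild type against 10.55, 9.79 and 10.42 in the mutants. It had the widest spread between mice of all 36 genes (pooled SD 0.334, against a median of 0.149 over the members and 0.152 over all genes), with mutant 2 lowest and mutant 1 highest. Its difference of 0.10 had a 95% interval from -0.39 to 0.60 and turned to -0.05 without mutant 1. Acly, the citrate-cleaving enzyme that supplies acetyl-CoA, differed by -0.04 (SE 0.10), and the mitochondrial carboxylase gene Acacb, whose product restrains fatty acid oxidation, by 0.19 (SE 0.12). The groups overlapped in both.

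Elongation and desaturation genes were higher in 7 of 8 cases, with a median log2 difference of 0.12. Elovl1, an elongase of very long chains, read 10.63, 10.48 and 10.24 in wild type against 10.66, 10.72 and 10.81 in the mutants. It was the 1 gene of this group whose mutants all lay above wild type, by a narrow margin over wild-type mouse 1 (0.28, SE 0.12, limma adjusted p = 0.48). Elovl6, which extends palmitate, and Elovl7 each differed by 0.27 (SE 0.15 and 0.13), with mutant 2 highest in both and with overlapping groups. Elovl5, an elongase of polyunsaturated chains, and the desaturase gene Fads1 differed by 0.04 and 0.03, and Fads2, which acts before Fads1, by 0.19 (SE 0.16). Scd1 and Scd2, desaturases that make oleate-type fatty acids, differed by -0.12 (SE 0.10) and 0.05 (SE 0.14). The Scd genes are close paralogs, and whether probes are shared was not tested.

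**Figure D4:**
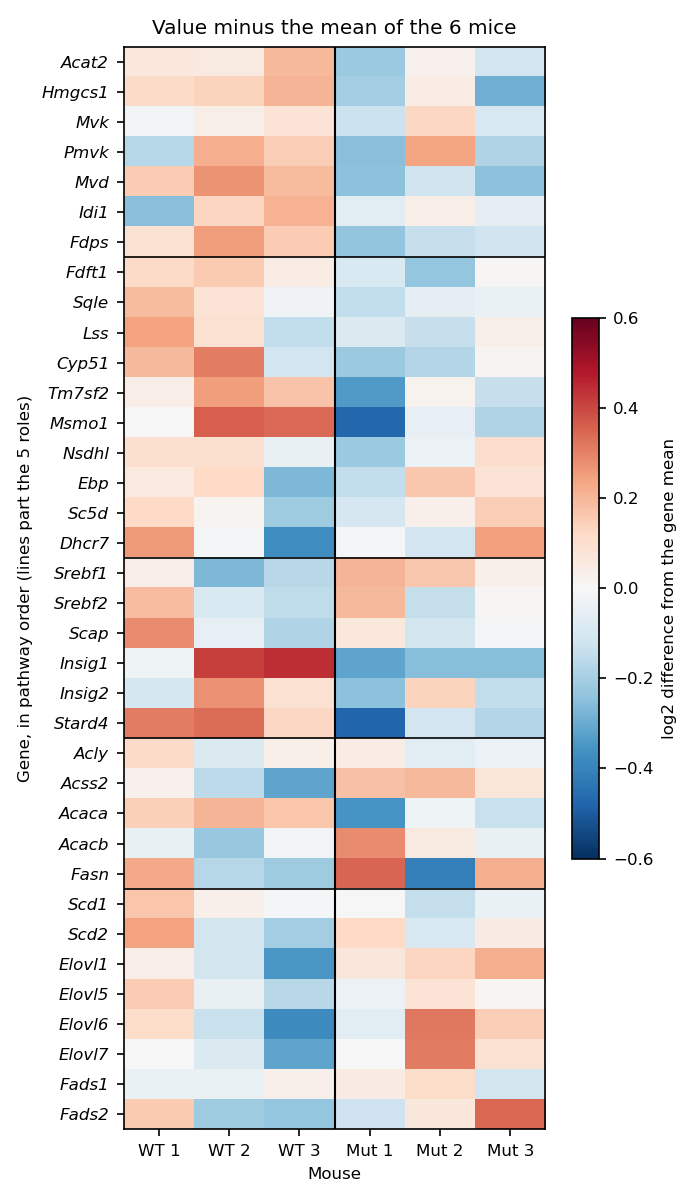
Value of each of the 36 genes (rows, in pathway order) in each of the 6 mice (columns; WT, wild type; Mut, Gli1-/-) minus the gene's mean over the mice, in log2 units. Rows of the sterol branch down to Msmo1 are mostly red in wild type and blue in mutants 1 and 3, whereas wild-type mouse 3 is blue in the last sterol enzymes and in most elongases.

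Mice of the same genotype did not move as one. The mean of centred log2 values over the mevalonate genes was 0.00, 0.16 and 0.17 in the wild-type animals against -0.19, 0.03 and -0.16 in the mutants. Mutant 2 thus lay within the wild-type range, and the groups overlapped. For the genes from squalene to cholesterol the scores were 0.13, 0.15 and -0.06 in wild type against -0.18, -0.06 and 0.03 in the mutants, which overlapped. Over all 17 sterol enzymes the groups were just apart, at 0.08, 0.15 and 0.03 against -0.19, -0.02 and -0.05. Over the 13 fatty acid enzymes they overlapped, at 0.10, -0.09 and -0.15 against 0.04, 0.04 and 0.06. The elongation and desaturation genes scored 0.10, -0.09 and -0.21 in wild type against 0.00, 0.10 and 0.09 in the mutants, again overlapping, with wild-type mouse 3 lowest. The palmitate synthesis genes scored 0.09, -0.09 and -0.07 against 0.10, -0.05 and 0.02. For the regulators the scores did not overlap, at 0.11, 0.10 and 0.03 against -0.10, -0.06 and -0.09.

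The tissue held several cell types, and in whole-lobe RNA fewer cells of a type cannot be told apart from less RNA per cell. The prostate secretory genes Tgm4 and Azgp1 were bright in all 6 mice but lower in all 3 mutants. Tgm4 read 13.38, 13.47 and 13.58 in wild type against 12.95, 13.01 and 12.92 in the mutants (-0.52, SE 0.10, limma adjusted p = 0.143). Azgp1 read 12.31, 12.18 and 12.13 against 11.43, 11.49 and 11.23 (-0.82, SE 0.11, limma adjusted p = 0.0882). Of the 10 secretory markers 1 was higher. The files hold no detection calls. The lowest value of any probe set was 2.36 to 2.56 in each mouse, so a reading above 0 does not show detection. The Gli1 transcript read 6.28, 6.48 and 6.51 in wild type against 6.34, 6.27 and 6.29 in the mutants. These ranges overlapped (-0.12, SE 0.10, limma adjusted p = 0.732), and the transcript does not check the labels, since the part of the gene removed is not given.

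No marker of the cell type lists passed the test over all genes, and the counts below are of signs only. Of 11 measured proliferation markers of 12 listed, all 11 were lower in the mutants (median -0.47). Their mean level was 8.33 to 8.84 in wild type against 7.75 to 8.56 in the mutants, which overlapped. Of 10 secretory markers 9 were lower (mean level 12.19 to 12.46 against 11.59 to 11.84), while 10 of 12 luminal markers were higher (11.08 to 11.25 against 11.26 to 11.32). All 8 smooth muscle markers were lower (9.77 to 10.32 against 9.32 to 9.69), and 9 of 9 measured macrophage markers were higher (8.31 to 8.64 against 8.87 to 9.32). All 8 basal markers (9.60 to 9.89 against 9.90 to 10.21), 7 of 8 fibroblast markers (9.70 to 9.86 against 9.90 to 10.36), 8 of 8 endothelial markers (7.14 to 7.27 against 7.24 to 7.52) and 8 of 8 skeletal muscle markers (6.66 to 7.44 against 7.13 to 8.29) were higher, with overlapping mean levels in the last 2 lists. Adipocytes, which also make fatty acids, had 6 of 10 markers higher, with overlapping mean levels (6.87 to 7.05 against 7.02 to 7.27). Seminal vesicle markers, of which 5 of 6 were lower, marked single mice: their mean level reached 7.26 in the third wild-type animal and 6.76 in the second mutant, and it was 4.55 to 5.19 in the other 4 mice. The part of these differences in those of the lipid genes was not tested.

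**Figure D5:**
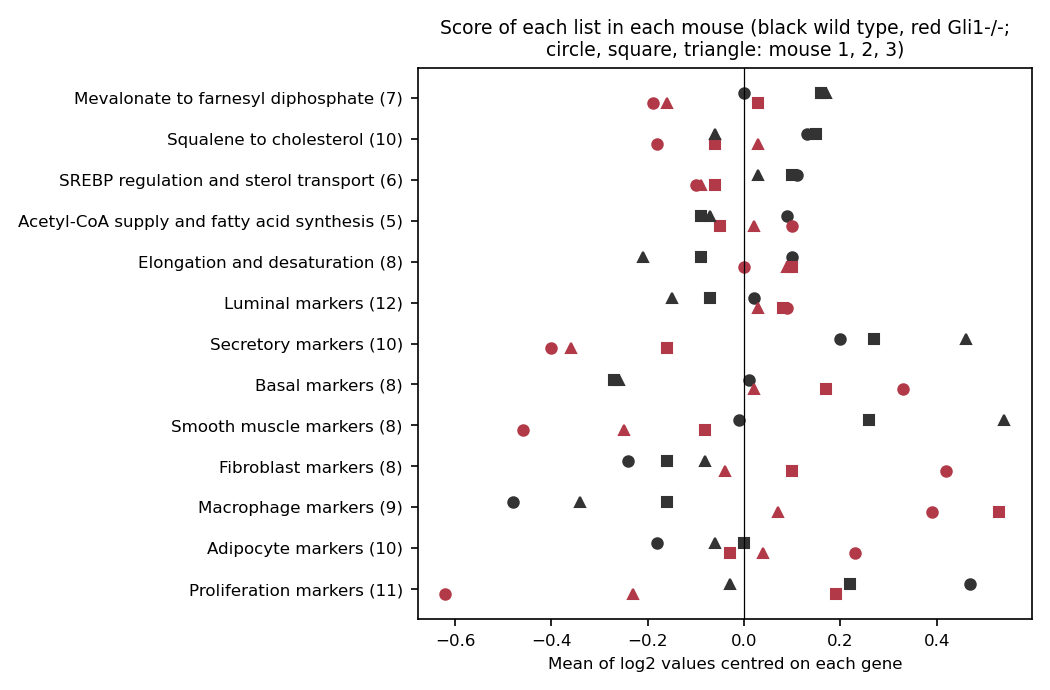
Score of each gene list (rows, with the number of genes) in each mouse, the mean over the list of log2 values after subtraction of the gene mean (x axis); black is wild type, red is Gli1-/-, and circle, square and triangle are mice 1, 2 and 3. The spread of the 5 lipid lists, from -0.21 to 0.17, is narrower than that of the secretory, smooth muscle, macrophage and proliferation markers.

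Other genes of lipid handling were read from lists of 28 sterol and 35 fatty acid genes. None of them passed over all genes (limma; lowest adjusted p 0.254 and 0.256), and at an unadjusted p under 0.05 none was lower, against 4.58% of all genes, while 4 of 28 and 3 of 35 were higher, against 5.93%. In the sterol list 14 were lower and 14 higher (median 0.01). Lipa, the lysosomal acid lipase that frees cholesterol from its esters, read 8.85, 8.84 and 8.70 in wild type against 9.26, 9.28 and 9.06 in the mutants, with no overlap (0.41, SE 0.10, limma adjusted p = 0.254). Mylip, a ubiquitin ligase gene that acts on lipoprotein receptors, differed by 0.61 (SE 0.17) and Stard3, a late-endosomal sterol carrier, by 0.40 (SE 0.11), both higher in all 3 mutants. In the fatty acid list 23 were higher and 12 lower (median 0.08). Dgat2, which completes triglycerides, read 9.41, 9.10 and 8.74 in wild type against 9.72, 9.81 and 9.64 in the mutants (0.64, SE 0.17, limma adjusted p = 0.256). Mid1ip1, an activator of acetyl-CoA carboxylase, differed by 0.28 (SE 0.11) and the kinase gene Prkaa2, whose product inhibits that enzyme, by 0.41 (SE 0.17). All mutants again lay above all wild-type mice, but narrowly. Wild-type mouse 1 and mutant 2 read 7.99 and 8.04 for Mid1ip1 and 9.41 and 9.42 for Prkaa2.

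The absence of calls depended on how the arrays were weighted. With limma's array weights 15 of the 36 genes were called, among them Mvd, Insig1, Stard4 and Msmo1, but 23.1% of all genes were called there too, with a weight of 7.22 for wild-type mouse 2 against 0.353 to 2.26 for the others. Without wild-type mouse 1 and mutant 2 together, 1 member was called (Insig1, -0.71, limma adjusted p = 0.0303), beside 4.28% of all genes.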

How the data were processed

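The authors deposited log2 probe-set intensities, 1 column per mouse, and no further normalization was applied. Partek and RMA stand in the submitters' processing notes without version or order. RMA compresses differences near background. The sources used here do not name the array model. Of 32025 probe sets, 25343 (79.1%) matched 1 gene through RefSeq transcripts (GRCm38.p6), giving 20263 genes. The brightest probe set stood for a gene. Of the members, 6 had several probe sets, with differences of the same sign.

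Gli1-/- minus wild type was tested with limma 3.58.1 under R 4.3.3 (lmFit, eBayes, two-sided, no covariate), adjusted by Benjamini-Hochberg over all genes and checked on simulated data. Errors are SDs over 3 mice or SEs of the fit. The median SE over all genes was 0.123; precision is limited by the number of arrays. Each sample was 1 mouse, so p-values set a difference against the variation between mice, which eBayes moderates over all genes. Members, lists and tests were chosen with earlier results of these data known. Alternatives were leaving out mice, averaging probe sets, dropping dim genes, median centring, quantile normalization, array weights, a replicate block and a trended robust variance. Every member is named. Values in each mouse are given for members with an unadjusted p under 0.05 or groups apart, and for Srebf1, Srebf2, Fasn, Insig1, Hmgcs1 and Sqle. Up to 3 genes with the smallest p are named per other list.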

Additional observations from a re-analysis of the deposited data

How the results depend on the processing

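Over 14 alternatives and 36 genes (504 values), 464 kept their direction and stayed uncalled, 24 turned direction and 16 became called. Of the 16, array weights gave 15, and the weight estimate stopped before it converged. With array weights 15 members were called, and the medians were -0.33 for the mevalonate genes, -0.17 for the regulators and 0.26 for palmitate synthesis. Without wild-type mouse 1 and mutant 2 together, 1 member was called, 26 members had groups apart (53.9% of all genes did), and the medians were -0.38 for the mevalonate genes and 0.24 for palmitate synthesis. Leaving out single mice gave 0 called members, 13 to 20 members with groups apart (19.2% to 36% of all genes) and medians of -0.09 to -0.04 over all members, -0.28 to -0.15 (mevalonate), -0.22 to -0.09 (squalene to cholesterol), -0.15 to -0.08 (regulators), -0.05 to 0.22 (palmitate synthesis, reversed without mutant 1) and 0.08 to 0.25 (elongation and desaturation). The 20 members with groups apart were found without wild-type mouse 1. Median centring left 9 members with groups apart (14.8% of all genes). Turned directions were all of small differences. With array weights these were Ebp (-0.07), Scap (0.03), Acly (0.05) and Fads1 (0.00); without wild-type mouse 1 and mutant 2 together they were Scap (0.14), Acly (0.03) and Fads1 (-0.02), while Idi1 was -0.24, Dhcr7 0.30 and Fasn 0.47. Single mice left out gave ranges of -0.20 to 0.03 (Idi1), -0.06 to 0.15 (Ebp), -0.04 to 0.12 (Sc5d), -0.08 to 0.23 (Dhcr7), -0.05 to 0.14 (Srebf2), -0.14 to 0.09 (Scap), -0.09 to 0.00 (Acly), -0.05 to 0.33 (Fasn), -0.04 to 0.18 (Scd2), -0.04 to 0.12 (Elovl5) and -0.01 to 0.10 (Fads1). The other 25 members kept their direction throughout. The cause of these shifts was not tested.

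The labels give both groups replicate numbers 1 to 3. Deviations of same-numbered mice from their group means correlated at 0.16, 0.25 and -0.15, and those of differently numbered mice at -0.32 to 0.25. With 3 mice per group these values cannot settle whether the numbers pair the mice. With the replicate number as a block 0 members were called (0.123% of all genes), and the median of the members was -0.06.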

Other observations

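The 4 lipid genes named here were chosen after their values were seen and stand for no group; of the 10 adipocyte markers, which include Pparg and Lipe, 4 were lower and 6 higher (median 0.03). Abcg1, a sterol exporter gene, read 7.03, 7.06 and 7.08 in wild-type mice and 7.57, 7.91 and 7.28 in the mutants (0.53, SE 0.16, limma adjusted p = 0.3). Abca1, another exporter gene, differed by 0.33 (SE 0.15) with overlapping groups. Pparg, a nuclear receptor gene of fat cells and other lipid-storing cells, read 7.43, 7.30 and 6.94 against 8.09, 8.38 and 8.47, a 2.14-fold higher intensity (1.10, SE 0.16, limma adjusted p = 0.0955). Lipe, the hormone-sensitive lipase gene, was also higher in all 3 mutants (0.37, SE 0.12). Beside them, the macrophage genes Msr1 and Laptm5 were higher by 1.09 and 0.88, and macrophages also express the exporter genes; their part in these values was not tested.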
